A study of Mus musculus with 12 samples.

Results

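Macrophages are tissue-dwelling phagocytes that belong, with monocytes and neutrophils, to the myeloid branch of the blood cells. Their transcripts were followed here through 10 genes in dorsal root ganglia of the mouse, where the cell bodies of sensory neurons lie. The 10 genes were chosen by symbol out of 21753 genes listed in either of the study's expression tables. Of the 10, 4 were taken as genes of resident macrophages (C1qa, C1qb, C1qc and Csf1r) and 3 as general myeloid genes (Lyz2, Fcer1g and Ptprc). The remaining 3 (Cd14, Ctss and Cd68) were put in neither class.

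RNA came from L4 to L6 ganglion neurons of C57BL/6J mice aged 8 weeks, and every group was collected 72 h after a spinal cord injury. In the AAV experiment the mice had received an adeno-associated virus through the sciatic nerve 4 weeks earlier. It carried transketolase (AAV-TKT), an enzyme of the pentose phosphate pathway, or green fluorescent protein (AAV-GFP). In the ribose experiment the mice were given 10% ribose, a pentose sugar (Ribose), or its vehicle (Vehicle). Each of the 4 groups had 3 libraries, and no uninjured group was analysed here. The promoter of the virus, the route of the ribose and any pooling of animals are not stated. The labels do not tie the 3 replicates of a group to separate mice, and the p-values here measure the spread between libraries, which may be technical.

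Sensory ganglia hold resident macrophages that lie close to the neurons and their satellite glia. After nerve injury such macrophages are known to multiply and monocytes are known to enter the ganglion, while neutrophils and other leukocytes are also carried in by blood. C1q, assembled from the products of C1qa, C1qb and C1qc, is the recognition part that starts the classical complement cascade. In many tissues it is made mainly by resident macrophages, whose survival depends on the receptor encoded by Csf1r. Lyz2 encodes the lysozyme of neutrophils, monocytes and macrophages alike, Fcer1g the signalling chain shared by several Fc receptors, and Ptprc the phosphatase CD45 of nearly all leukocytes.

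On GRCm38 the C1q genes lie side by side on the minus strand of chromosome 4. C1qb runs from 136880129 to 136886187, C1qc from 136889804 to 136893065 and C1qa from 136895917 to 136898803. The cluster spans 18.7 kb, with gaps of 3.62 and 2.85 kb between neighbours. Lyz2 lies at chr10:117277331-117282321, Fcer1g at chr1:171229572-171234365 and Ptprc at chr1:138062861-138175708, all on the minus strand. Ctss lies at chr3:95526786-95556403 on the plus strand and Cd68 at chr11:69664213-69666153 on the minus strand. An exon of Csf1r overlaps the span of the gene Hmgxb3 on the opposite strand, and the length of the overlap was not measured. Reads from a shared stretch could be assigned to either gene unless the counting used strand, which is not stated. Lyz2 shares 32.8% of its 31-base words with the neighbouring lysozyme gene Lyz1, and reads from those stretches could be assigned to either. In the ribose table Lyz1 was at no more than 0.984 FPKM in any library (fragments per kilobase, relative to the size of the library, the unit of both tables). Lyz1 was not analysed here in the AAV table.

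The stretches just before the RefSeq starts of 4 of these genes are shown because they differ in a DNA word read by PU.1, the myeloid transcription factor encoded by Spi1. The word is GAGGAA, searched on both strands, where its other-strand form is TTCCTC. Each line gives the 250 bases before the start, 5′ to 3′ on the gene's own strand, from RefSeq (GRCm38.p6), with the word in capitals. The start is that of the RefSeq entry, which can differ from the gene bounds given above (GENCODE M21), so that 151 bases of the C1qc stretch and 49 of the Lyz2 stretch lie inside those bounds. They cover chr10:117282273-117282522 (minus) for Lyz2, chr4:136886201-136886450 (minus) for C1qb, chr4:136892915-136893164 (minus) for C1qc and chr3:95526536-95526785 (plus) for Ctss.
Lyz2: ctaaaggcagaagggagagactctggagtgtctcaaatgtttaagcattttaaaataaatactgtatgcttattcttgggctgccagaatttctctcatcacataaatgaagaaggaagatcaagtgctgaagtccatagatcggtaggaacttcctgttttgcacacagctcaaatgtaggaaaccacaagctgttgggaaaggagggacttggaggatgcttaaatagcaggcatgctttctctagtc
C1qb: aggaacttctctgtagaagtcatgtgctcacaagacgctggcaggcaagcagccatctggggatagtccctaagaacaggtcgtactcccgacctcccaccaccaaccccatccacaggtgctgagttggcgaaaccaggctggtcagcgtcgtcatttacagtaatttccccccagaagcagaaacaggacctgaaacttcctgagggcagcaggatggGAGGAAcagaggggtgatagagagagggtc
C1qc: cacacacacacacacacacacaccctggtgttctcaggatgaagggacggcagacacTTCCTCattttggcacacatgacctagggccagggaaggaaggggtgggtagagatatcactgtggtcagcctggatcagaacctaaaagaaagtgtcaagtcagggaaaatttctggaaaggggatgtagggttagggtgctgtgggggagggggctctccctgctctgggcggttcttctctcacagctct
Ctss: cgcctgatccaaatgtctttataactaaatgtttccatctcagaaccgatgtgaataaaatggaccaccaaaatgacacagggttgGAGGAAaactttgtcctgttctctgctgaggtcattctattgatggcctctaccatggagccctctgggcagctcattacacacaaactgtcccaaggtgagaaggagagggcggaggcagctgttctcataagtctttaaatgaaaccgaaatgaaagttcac
The word stood in the C1qb, C1qc and Ctss stretches and not in that of Lyz2. Over 7 members with an entry it stood in 5 of 8 promoters, the others being 1 of the 2 entries for Ptprc, both of which lie inside the GENCODE gene, and that of Cd68. It is a short word, found in 23.3% of all 32851 promoters of the same length. A match or its absence describes the letters of this word only, and other words that PU.1 may read were not searched. In the ribose table Spi1 itself was at 1.22, 0.353 and 0.827 FPKM in Ribose against 0.811, 1.41 and 0.214 FPKM in Vehicle, and the groups overlapped.

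The AAV table listed 13178 genes, each with a mean of at least 1 FPKM, and held 9 of the 10 genes. Cd68 was not analysed there. The ribose table listed 21650 genes and held all 10, of which 4 (Lyz2, C1qb, Csf1r and Ctss) reached the mean of 1 FPKM required for the main test. Totals were 413635 to 456084 FPKM per AAV library and 510551 to 551370 FPKM per ribose library, and the number of reads behind them is unknown. Tkt was higher in AAV-TKT by 1.27 on the log2(FPKM + 1) scale (limma adjusted p = 0.0054), in the direction of its label. Neuronal markers summed to 7606 FPKM or more in every library of both experiments. Against this, the 9 genes together made up 16.5 to 59.2 FPKM in an AAV library, and the 10 genes together 5.40 to 39.7 FPKM in a ribose library. In libraries of mixed cells, fewer cells of a type and less RNA per cell cannot be told apart.

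Other macrophage genes gave a mixed check of the cell type. Of 20 such genes, 6 had a row in the AAV table, among them Mpeg1, the pore-forming perforin-2, and Tyrobp, the signalling partner of Trem2. In the ribose table all 20 were listed, but the defining surface genes were scarce. Adgre1, which encodes F4/80, was at 0 to 0.628 FPKM in Ribose and 0.196 to 0.406 FPKM in Vehicle. Cx3cr1, the fractalkine receptor, was at 0.286 to 0.893 FPKM in Ribose and 0.0878 to 0.610 FPKM in Vehicle. These 2 genes are named outside the naming rule, after their values were seen. The 10 genes are therefore described by name and not as a measure of macrophage number.

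In the AAV experiment each AAV-TKT library held less Lyz2, Fcer1g and Ptprc than any AAV-GFP library, as it did for C1qc, Csf1r and Cd14. C1qa, C1qb and Ctss overlapped. The table holds only genes that reach a mean of 1 FPKM over its 6 libraries, and Fcer1g, Ptprc, Cd14 and C1qc reached it only through AAV-GFP, their AAV-TKT means being under 1 FPKM. Counts over the 9 listed genes can lean to the lower side by that selection and are a description only. The sign was negative for 9 of 9 (46.3% of all genes), and 6 of 9 did not overlap on the lower side (7.2% of all genes). Of the 5 that averaged 1 FPKM or more in each group, 5 were negative and 2, Lyz2 and Csf1r, did not overlap, while 45.4% and 6.65% of all genes of that kind did so. None of the 9 passed an adjusted p of 0.05 over all genes (limma on log2(FPKM + 1), Benjamini-Hochberg adjustment, background 0.0152%), and 7 of 9 had an unadjusted p under 0.05 on the lower side, where 4.36% of all genes did. Fcer1g, Ptprc, Cd14 and C1qc were among the 7. The median log2 difference was -0.62 over the 9 genes, -1.07 over the general myeloid genes and -0.38 over the resident macrophage genes, against 0.01 over all genes. Over genes that averaged 1 FPKM or more in each group it was -0.47 for 5 genes and -0.29 for 3 resident macrophage genes, against 0.02 for all such genes. Of the general myeloid genes Lyz2 alone was left there, so the classes could not be compared without that selection. The difference between the classes was not tested, and C1qc lay near Ptprc (-0.61 and -0.72).

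**Figure D1:**
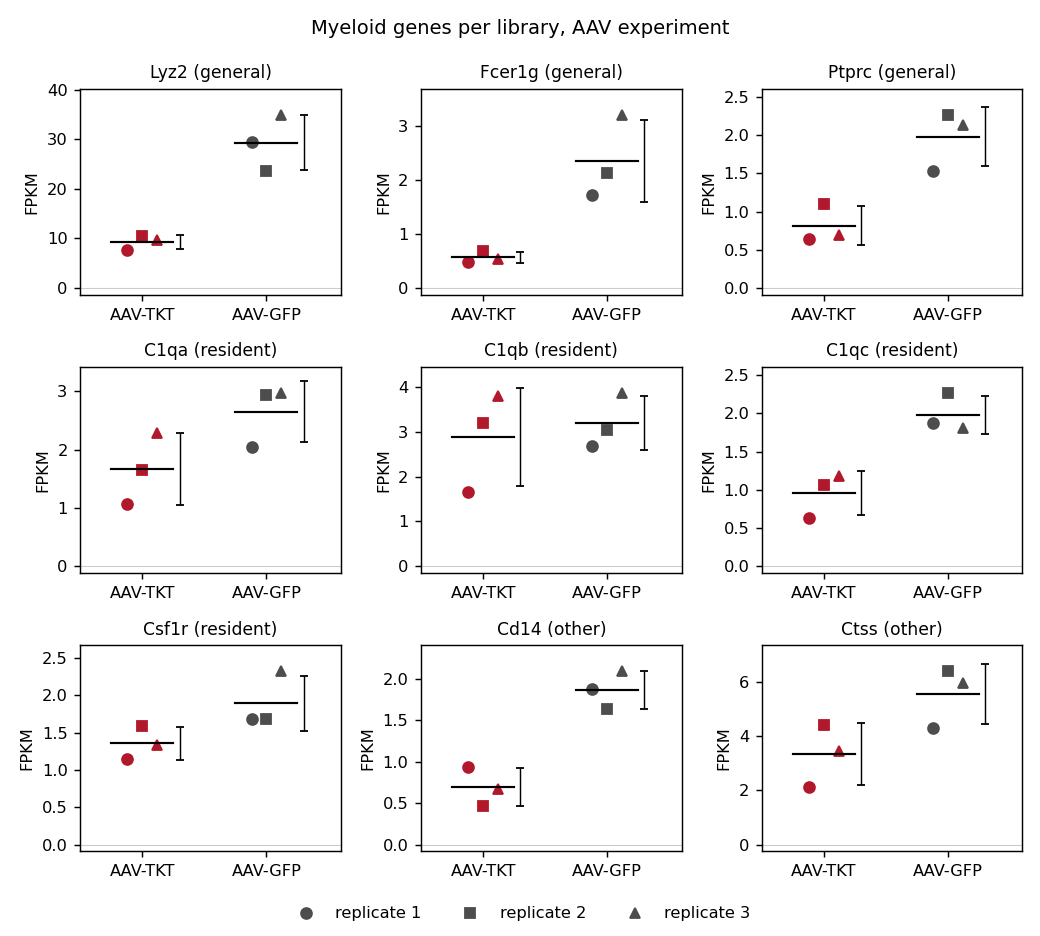
Level of each listed gene in FPKM (vertical axes, each on its own scale from 0) in the 3 AAV-TKT and the 3 AAV-GFP libraries, with the group mean as a line and ± 1 SD as a bar. Lyz2, Fcer1g, Ptprc, Cd14, C1qc and Csf1r have no overlap between the groups, and C1qa, C1qb and Ctss do.

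Lyz2 was by far the most abundant of the genes. It stood at 7.77, 10.52 and 9.73 FPKM in AAV-TKT replicates 1, 2 and 3, against 29.3, 23.7 and 34.9 FPKM in AAV-GFP replicates 1, 2 and 3. The highest AAV-TKT library was less than the lowest AAV-GFP library, with means of 9.34 ± 1.42 and 29.3 ± 5.60 FPKM (SD, n = 3 each), 3.14-fold higher in AAV-GFP. The log2 difference was -1.54 (SE 0.156), with a limma adjusted p = 0.0585 over all genes, just short of the threshold. That call turned on the processing: it was made in 5 of 10 other settings, which gave adjusted p from 0.00554 to 0.243. With a library left out the adjusted p ran from 0.0159 to 0.380, and it passed only without AAV-GFP replicate 2 (0.0159). The difference itself was between -1.68 and -1.41 across those omissions.

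Fcer1g, needed for the surface display and signalling of activating Fc receptors, had the lowest ratio of the group means. Its values were 0.486, 0.681 and 0.541 FPKM in AAV-TKT, against 1.73, 2.13 and 3.20 FPKM in AAV-GFP. The libraries did not overlap, and the AAV-GFP mean was 4.13-fold higher. On the log2(FPKM + 1) scale, which understates changes of genes this low, the difference was -1.07 (SE 0.182, limma unadjusted p = 0.000496, adjusted p = 0.234). Ptprc was at 0.636, 1.11 and 0.700 FPKM in AAV-TKT, against 1.54, 2.26 and 2.14 FPKM in AAV-GFP. These groups were also apart, at a log2 difference of -0.72 (SE 0.165, limma adjusted p = 0.359).

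Of the resident macrophage genes, C1qa and C1qb overlapped between the groups, and C1qc and Csf1r did not. C1qa was at 1.07, 1.65 and 2.29 FPKM in AAV-TKT, against 2.05, 2.94 and 2.97 FPKM in AAV-GFP. The highest AAV-TKT library exceeded the lowest AAV-GFP library, and the log2 difference was -0.47 (SE 0.197, limma adjusted p = 0.470). C1qb was at 1.66, 3.19 and 3.79 FPKM in AAV-TKT, against 2.68, 3.05 and 3.86 FPKM in AAV-GFP. Only AAV-TKT replicate 1 lay below the range of the other group. The log2 difference of -0.15 (SE 0.227, limma adjusted p = 0.831) became 0.10 without that library.

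C1qc was the 1 chain of C1q with no overlap, at 0.635, 1.06 and 1.19 FPKM in AAV-TKT, against 1.87, 2.26 and 1.81 FPKM in AAV-GFP. Its log2 difference was -0.61 (SE 0.156, limma unadjusted p = 0.00501, adjusted p = 0.378). Csf1r, the receptor for the growth factors CSF1 and IL-34, was at 1.15, 1.59 and 1.34 FPKM in AAV-TKT, against 1.68, 1.68 and 2.32 FPKM in AAV-GFP. Here the groups were apart only narrowly, between 1.59 and 1.68 FPKM, at a log2 difference of -0.29 (SE 0.145, limma adjusted p = 0.504). Differences between the chains of C1q were not tested.

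Cd14, the co-receptor that hands endotoxin to Tlr4, was at 0.935, 0.471 and 0.674 FPKM in AAV-TKT, against 1.88, 1.64 and 2.09 FPKM in AAV-GFP. Its groups did not overlap, at a log2 difference of -0.77 (SE 0.153, limma unadjusted p = 0.00133, adjusted p = 0.324). Ctss, a cathepsin that trims the invariant chain of class II antigen presentation, was the second most abundant of the genes. It stood at 2.13, 4.42 and 3.47 FPKM in AAV-TKT, against 4.31, 6.39 and 5.97 FPKM in AAV-GFP. AAV-TKT replicate 2 reached just above the lowest AAV-GFP library, and the log2 difference was -0.62 (SE 0.218, limma adjusted p = 0.418).

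The order of the mean levels differed little between the AAV groups at the top. Lyz2, Ctss, C1qb and C1qa held the top places in both AAV-TKT and AAV-GFP. Fcer1g was the ninth of 9 genes in AAV-TKT and the fifth in AAV-GFP. Lyz2 stood clear of the next gene in every library, whereas the ranges of Ctss and C1qb overlapped in AAV-TKT (2.13 to 4.42 against 1.66 to 3.79 FPKM). In AAV-GFP the ranges of Ctss (4.31 to 6.39 FPKM) and C1qb (2.68 to 3.86 FPKM) did not meet.

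**Figure D2:**
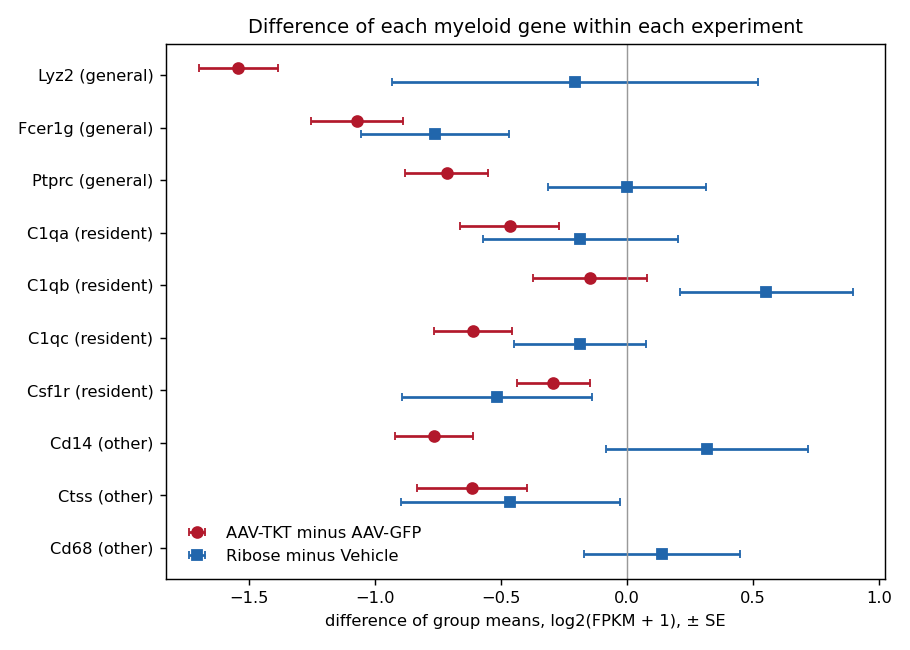
Log2(FPKM + 1) difference of the group means for each gene, with ± SE bars, for AAV-TKT minus AAV-GFP (circles) and Ribose minus Vehicle (squares, from the fit without the filter where a gene missed it). Negative values lie left of the line at 0. The circles run from -1.54 for Lyz2 to -0.15 for C1qb, and the squares from -0.76 for Fcer1g to 0.55 for C1qb.

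Set against Lyz2 within each library, C1q took a larger share in AAV-TKT. The summed FPKM of the 3 C1q chains was 43.3%, 56.0% and 74.7% of the Lyz2 level in AAV-TKT replicates 1 to 3, against 22.5%, 34.9% and 24.8% in AAV-GFP replicates 1 to 3. The groups did not overlap, at 58.0% ± 15.8 and 27.4% ± 6.58 (SD, n = 3 each), and the AAV-TKT mean was 2.12 times that of AAV-GFP. With Csf1r added to C1q and with Fcer1g and Ptprc added to Lyz2, the shares were 50.7%, 60.8% and 78.4% in AAV-TKT and 25.4%, 35.4% and 27.3% in AAV-GFP. These are no separate check, because Lyz2 made up most of the larger sum. It was 7.77 of 8.89 FPKM in AAV-TKT replicate 1 and 29.3 of 32.6 FPKM in AAV-GFP replicate 1. Fcer1g and Ptprc were also listed only through AAV-GFP. The C1q sum on its own overlapped, at 3.36, 5.89 and 7.27 FPKM in AAV-TKT and 6.60, 8.25 and 8.63 FPKM in AAV-GFP. The larger share thus came with the lower Lyz2 of the AAV-TKT libraries. The shares were formed after earlier results of these data were known and carry no test.

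**Figure D3:**
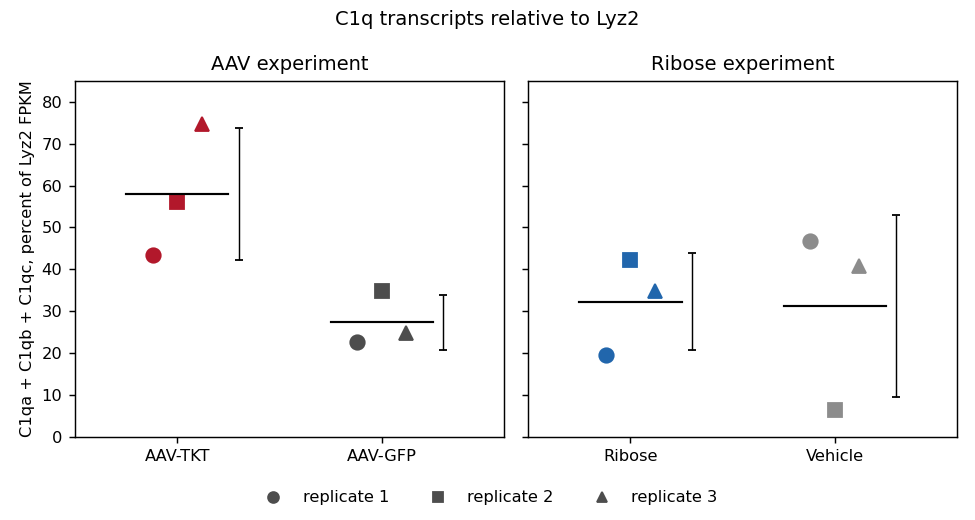
Summed FPKM of C1qa, C1qb and C1qc as a percent of Lyz2 in each library (vertical axis), for AAV-TKT, AAV-GFP, Ribose and Vehicle, with group means as lines and ± 1 SD as bars. The AAV-TKT libraries lie at 43.3% to 74.7% and the AAV-GFP libraries at 22.5% to 34.9%, while Ribose and Vehicle overlap.

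Neutrophil genes ran in the same order as Lyz2 from library to library. The 12 of 16 neutrophil markers listed in the AAV table summed to 26.2 ± 6.38 FPKM in AAV-TKT, against 180.1 ± 85.1 FPKM in AAV-GFP (SD, n = 3 each), where replicate 3 was the highest (269.5 FPKM) and replicate 2 the lowest. Taken singly, 12 of 12 were lower in all AAV-TKT libraries (7.2% of all genes), but 6 of them were listed only through AAV-GFP. Over the 6 AAV libraries Lyz2 had the same rank as the neutrophil sum in 6 of 6, and the C1q sum in 2 of 6. Over the 6 ribose libraries these counts were again 6 and 2. Spearman's rho with the neutrophil sum was 1.0 for Lyz2 in each experiment, against 0.71 for the C1q sum in the AAV libraries and 0.37 in the ribose libraries (6 libraries each, a description that the group difference enters). Lyz2 was 37.8%, 31.7% and 38.9% of the neutrophil sum in AAV-TKT, against 17.2%, 23.7% and 12.9% in AAV-GFP, so the levels were not in a fixed proportion. Red-cell markers did not overlap either, with sums of 78.8, 71.9 and 94.4 FPKM in AAV-TKT and 380.8, 113.4 and 476.3 FPKM in AAV-GFP. The part of neutrophil or blood transcripts in the Lyz2, Fcer1g and Ptprc differences was not tested.

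Marker sums of other cells also differed in level between the AAV libraries, with no marker past the threshold over all genes. Neuronal markers summed to 8711 to 10220 FPKM in AAV-TKT, against 7606 to 8508 FPKM in AAV-GFP. Schwann cell markers summed to 300.1 to 331.2 FPKM in AAV-TKT, against 351.7 to 384.0 FPKM in AAV-GFP, and neither of these pairs overlapped. Satellite glia markers overlapped, at 686.6 to 1167 FPKM in AAV-TKT and 1010 to 1316 FPKM in AAV-GFP, as did fibroblast markers, at 40.8 to 58.5 FPKM in AAV-TKT and 53.5 to 115.9 FPKM in AAV-GFP. Beside the median of -0.38 over the resident macrophage genes, the median log2 difference was -0.32 for Schwann cells (7 of 7 negative), -0.37 for satellite glia (7 of 8 negative) and -0.50 for fibroblasts (6 of 6 negative). The part of these in the C1q and Csf1r differences was not tested.

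**Figure D4:**
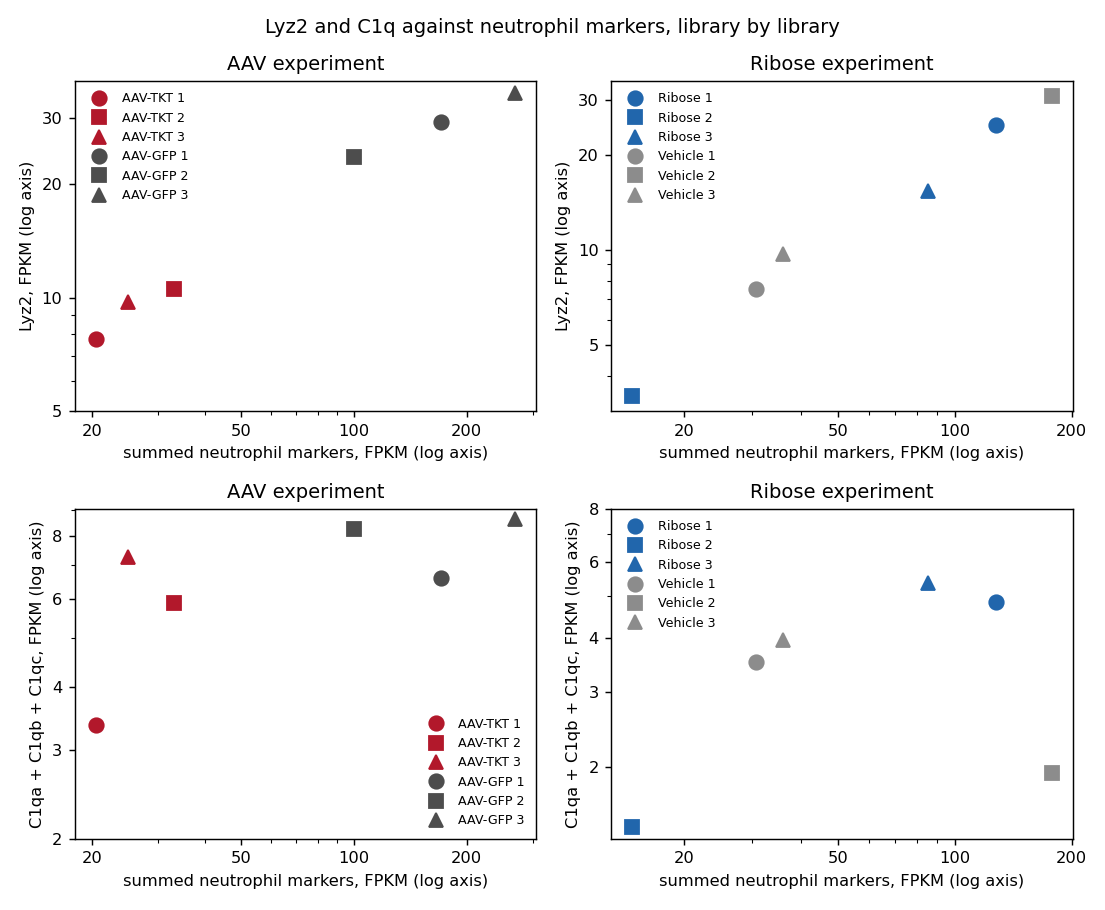
Lyz2 (upper panels) and the C1q sum (lower panels) in FPKM against the summed neutrophil markers in FPKM, both on log axes, for the AAV (left) and ribose (right) libraries. Lyz2 has the same order as the neutrophil sum in 6 of 6 libraries of each experiment, and the C1q sum keeps its rank in 2 of 6.

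Of 8 genes that mark monocytes, the blood precursors of macrophages, 3 were listed in the AAV table and 3 of 3 did not overlap (7.2% of all genes lay so on the lower side), with Ifitm6 listed only through AAV-GFP. Chil3, a chitinase-like protein, was at 2.30, 2.46 and 1.17 FPKM in AAV-TKT, against 11.1, 9.31 and 17.8 FPKM in AAV-GFP. Its log2 difference was -2.19 (limma adjusted p = 0.104). Ifitm6, an interferon-induced membrane protein, was at 0, 0.710 and 0.463 FPKM in AAV-TKT, against 1.96, 1.49 and 2.86 FPKM in AAV-GFP. None of the 3 passed over all genes. Chil3 ran in the order of the neutrophil sum within AAV-GFP but not within AAV-TKT. The part of neutrophil transcripts in the differences of these monocyte markers was not tested.

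The wider macrophage list had a median nearer to 0 than the general myeloid genes, of which Fcer1g and Ptprc were listed only through AAV-GFP. Of its 6 listed genes, 4 were negative and 2 positive in AAV-TKT, with 0 past the threshold and a median of -0.24. Mpeg1 was at 1.10, 1.42 and 1.10 FPKM in AAV-TKT, against 1.76, 3.07 and 2.61 FPKM in AAV-GFP, and the groups were apart. Tyrobp was at 0.661, 1.04 and 1.92 FPKM in AAV-TKT, against 2.89, 2.17 and 3.33 FPKM in AAV-GFP, also apart. Mpeg1 and Tyrobp were the 2 of 6 genes separated on the lower side (7.2% of all genes). Microglia markers, for the macrophages of the cord itself, had 2 of 7 listed and 1 of each sign. Their median log2 difference was 0.09.

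Around Csf1r, 6 of 9 genes of its axis were listed in the AAV table, with 4 negative, 2 positive and 0 past the threshold (median -0.14). Tyrobp and Cebpa, 2 of the 6, were separated on the lower side (7.2% of all genes). The groups overlapped for both ligands of the receptor. Csf1 was at 4.89, 5.16 and 4.79 FPKM in AAV-TKT, against 5.44, 4.39 and 5.99 FPKM in AAV-GFP. Il34 was at 13.8, 10.9 and 14.5 FPKM in AAV-TKT, against 13.2, 9.20 and 12.5 FPKM in AAV-GFP. Both ligands are named outside the naming rule, for their direct binding to the receptor and after their values were seen. Cebpa, a myeloid transcription factor of the same list, was at 1.07, 1.42 and 1.17 FPKM in AAV-TKT and 1.97, 1.44 and 1.62 FPKM in AAV-GFP, apart by a small margin (log2 difference -0.27, limma adjusted p = 0.511).

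Around C1q, 7 of 14 partners, receptors and inhibitors were listed, with 6 negative (46.3% of all genes), 4 separated on the lower side (7.2% of all genes) and 0 past the threshold (median -0.33). Of the 4, C3 and Itgb2 were listed only through AAV-GFP. C3, the hub on which the complement pathways meet, was at 0.526, 1.29 and 0.675 FPKM in AAV-TKT, against 2.39, 1.95 and 3.18 FPKM in AAV-GFP. Its log2 difference was -0.95 (limma unadjusted p = 0.00199, adjusted p = 0.341), beyond that of any C1q chain. Itgb2, the beta chain of the leukocyte integrins that bind C3 fragments, was at 0.355, 0.706 and 0.486 FPKM in AAV-TKT, against 1.50, 1.12 and 2.29 FPKM in AAV-GFP. These groups did not overlap either.

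Around Cd14, 7 of 11 co-receptor and signalling partners were listed, with 5 negative, 2 positive and 0 past the threshold (median -0.05). The adaptor Myd88 was the only one with separate groups, 1 of 7 on the lower side (7.2% of all genes). It was at 2.34, 2.30 and 2.30 FPKM in AAV-TKT, against 2.87, 2.79 and 3.22 FPKM in AAV-GFP. Tlr4 itself, named outside the naming rule, overlapped at 1.52 to 1.94 FPKM in AAV-TKT and 1.56 to 2.10 FPKM in AAV-GFP. None of the 10 Fc receptor partners of Fcer1g had a row in the AAV table that was analysed here.

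Around Ctss, 14 of 15 lysosomal cathepsins, cystatins and membrane proteins were listed, and the list did not share its sign: 5 were negative and 9 positive in AAV-TKT, with a median of 0.03 and 0 past the threshold. Ctsc, which activates the serine proteases of leukocyte granules, was at 3.11, 2.23 and 2.63 FPKM in AAV-TKT, against 3.76, 4.59 and 3.81 FPKM in AAV-GFP. Ctsh, another cysteine cathepsin, was at 0.665, 1.13 and 1.01 FPKM in AAV-TKT, against 1.92, 1.87 and 1.17 FPKM in AAV-GFP. Both had separate groups, with Ctsh listed only through AAV-GFP. They were the 2 of 14 genes separated on the lower side (7.2% of all genes), while 2 of 14 were separated on the higher side (11.3% of all genes). Those 2, Ctsb and Ctsd, are named outside the naming rule. Ctsb was at 589.8 to 667.3 FPKM in AAV-TKT, against 555.4 to 587.8 FPKM in AAV-GFP. Ctsd was at 403.9 to 428.6 FPKM in AAV-TKT, against 359.4 to 371.9 FPKM in AAV-GFP. Pan-leukocyte genes, the company of Ptprc, had 9 of 11 listed genes separated on the lower side (7.2% of all genes) and 2 on the higher side, though 6 of the 9 were listed only through AAV-GFP, with a median of -0.69 and 0 past the threshold. Cd52, a small surface glycoprotein of leukocytes, was at 0.533, 1.11 and 1.34 FPKM in AAV-TKT, against 2.36, 2.93 and 3.83 FPKM in AAV-GFP. The 2 pan-leukocyte genes on the higher side were the actin regulators Coro1a and Lcp1, at 61.8 FPKM or more in every AAV library (11.3% of all genes were higher in all AAV-TKT libraries).

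In the ribose experiment the groups overlapped for 9 of the 10 genes. None of the 4 genes tested passed over all genes (limma, background 0.00724%), 0 of 4 had an unadjusted p under 0.05 (background 4.79%), and without the filter on low values 0 of 10 passed (background 0.00462%). Without that filter 1 of 10, Fcer1g, had an unadjusted p under 0.05, against 5.35% of all genes. All Ribose libraries lay below all Vehicle libraries for 1 of 10 genes, Fcer1g, where 5.43% of all listed genes did so. The sign was negative for 7 of 10 genes, against 50.9% of all listed genes. Ribose replicate 2 listed 6 of the 10 genes at 0, whereas 0 of 10 were at 0 in the other 5 ribose libraries.

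**Figure D5:**
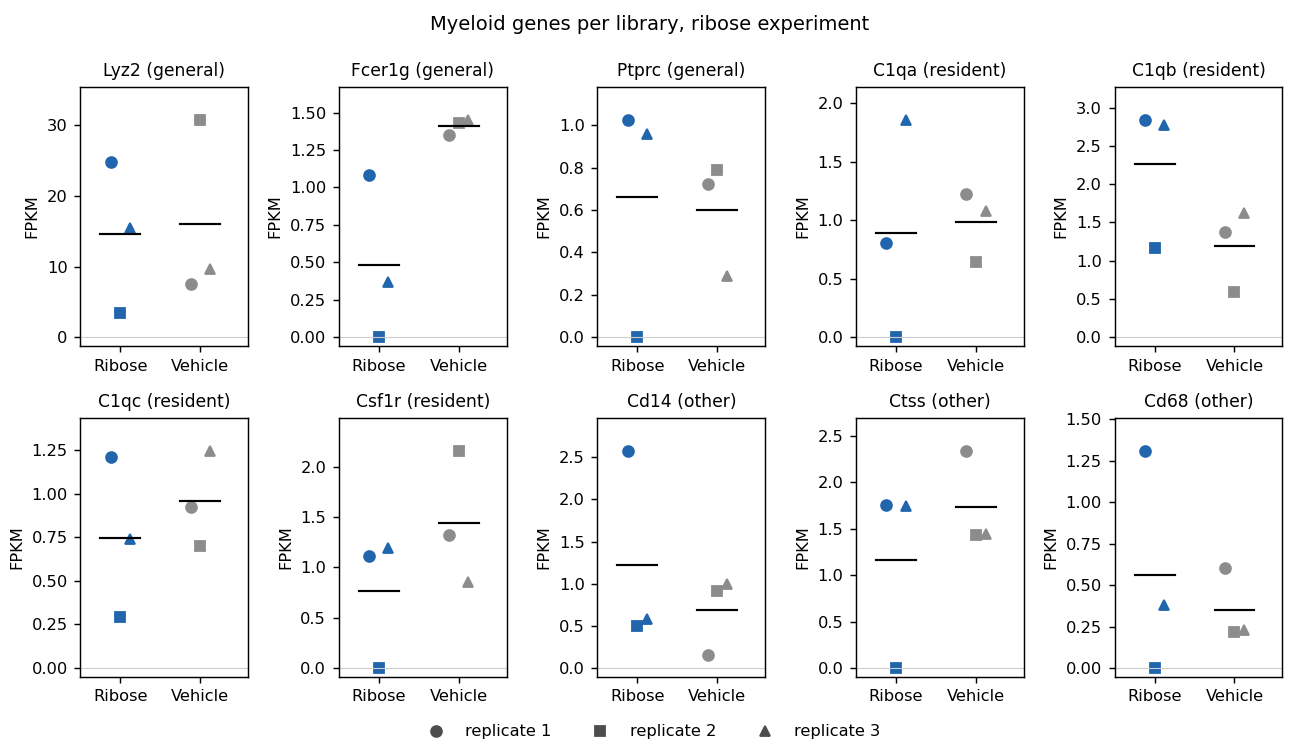
Level of each of the 10 genes in FPKM (vertical axes, each on its own scale) in the 3 Ribose and the 3 Vehicle libraries, marked by replicate, with the group mean as a line. Fcer1g is the 1 gene without overlap, and Ribose replicate 2 is listed at 0 for 6 genes.

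Lyz2 was at 24.8, 3.44 and 15.4 FPKM in Ribose replicates 1, 2 and 3, against 7.54, 30.8 and 9.68 FPKM in Vehicle replicates 1, 2 and 3. The lowest library was a Ribose one and the highest a Vehicle one. The log2 difference of -0.21 (SE 0.721, limma adjusted p = 0.9998) became 0.53 without Ribose replicate 2 and 0.37 without Vehicle replicate 2. Neutrophil markers ran in the same order, with sums of 127.3, 14.7 and 85.1 FPKM in Ribose and 30.8, 177.5 and 36.1 FPKM in Vehicle. Their part in the Lyz2 values was not tested.

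Fcer1g was at 1.08, 0 and 0.369 FPKM in Ribose, against 1.35, 1.43 and 1.45 FPKM in Vehicle. The Vehicle libraries lay close together and above all Ribose libraries. The log2 difference was -0.76 (SE 0.293, limma without the filter, unadjusted p = 0.0341, adjusted p = 0.926). Ptprc was at 1.03, 0 and 0.959 FPKM in Ribose, against 0.725, 0.792 and 0.290 FPKM in Vehicle, which overlapped. Of the Fc receptor partners of Fcer1g, 6 of 10 were listed and 0 reached a mean of 1 FPKM.

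C1qb was the C1q chain with the highest mean in Ribose, at 2.84, 1.16 and 2.77 FPKM, against 1.37, 0.597 and 1.62 FPKM in Vehicle. Only Ribose replicate 2 fell inside the Vehicle range, and the log2 difference was 0.55 (SE 0.345, limma unadjusted p = 0.151, adjusted p = 0.9998). C1qa was at 0.805, 0 and 1.86 FPKM in Ribose, against 1.22, 0.643 and 1.08 FPKM in Vehicle. C1qc was at 1.21, 0.292 and 0.743 FPKM in Ribose, against 0.924, 0.701 and 1.25 FPKM in Vehicle. The groups overlapped for all 3 chains, and those of C1qa and C1qc had the opposite sign to C1qb (each -0.19).

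Csf1r was at 1.12, 0 and 1.19 FPKM in Ribose, against 1.32, 2.16 and 0.856 FPKM in Vehicle. The log2 difference was -0.52 (SE 0.410, limma adjusted p = 0.9998), and it was -0.15 without Ribose replicate 2. Ctss was at 1.76, 0 and 1.74 FPKM in Ribose, against 2.34, 1.44 and 1.44 FPKM in Vehicle. Its log2 difference of -0.46 (SE 0.447, limma adjusted p = 0.9998) became 0.02 without Ribose replicate 2. Both genes thus rested on the library in which they were listed at 0.

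Cd14 was at 2.58, 0.502 and 0.579 FPKM in Ribose, against 0.151, 0.913 and 0.996 FPKM in Vehicle. Cd68, a lysosomal membrane glycoprotein of macrophages, was at 1.31, 0 and 0.379 FPKM in Ribose, against 0.604, 0.218 and 0.230 FPKM in Vehicle. For both, Ribose replicate 1 was the highest library and the groups overlapped. At these levels, below 1 FPKM in most libraries, the depth is unknown and a value of 0 does not show that the transcript was absent.

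Ribose replicate 2 was also low in some markers of other cells. Its satellite glia markers summed to 293.7 FPKM, against 1012 and 877.9 FPKM in Ribose replicates 1 and 3 and 682.5 to 1630 FPKM in Vehicle. Its red-cell markers summed to 14.5 FPKM, against 215.1 FPKM or more in the other Ribose libraries and 73.8 to 211.9 FPKM in Vehicle. It was not low throughout: its neuronal markers had the highest sum of the 6 libraries, at 9206 FPKM, and its Schwann cell sum of 388.6 FPKM was close to the 387.7 FPKM of Ribose replicate 3. It did not list more genes at 0 in general, with 2482 against 3005 and 3131 in the other Ribose libraries. The Vehicle libraries listed 1247 to 2381 genes at 0.

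C1q as a share of Lyz2 did not separate the groups of the ribose experiment. It was 19.5%, 42.3% and 34.9% in Ribose, against 46.7%, 6.31% and 40.8% in Vehicle, with means of 32.2% ± 11.6 and 31.3% ± 21.8 (SD, n = 3 each). Vehicle replicate 2, with the highest Lyz2 and the highest neutrophil sum of the 6, had the lowest share. The C1q sum was 4.85, 1.46 and 5.37 FPKM in Ribose and 3.52, 1.94 and 3.95 FPKM in Vehicle.

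Around these genes, 0 of the genes of any list passed between Ribose and Vehicle. The differences were negative and positive for 5 and 1 of 6 other macrophage genes, 2 and 6 of 8 genes of the Csf1r axis, and 5 and 1 of 6 partners of C1q. They were so for 3 and 5 of 8 partners of Cd14, 2 and 1 of 3 monocyte genes and 3 and 5 of 8 pan-leukocyte genes. Lbp, which loads endotoxin onto the Cd14 protein, was at 1.38, 0.775 and 7.39 FPKM in Ribose, against 0.250, 0.678 and 0.637 FPKM in Vehicle. Its groups did not overlap, with Ribose replicate 3 far above the rest (log2 difference 1.12, limma adjusted p = 0.9998).

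The experiments were compared through their differences, since their tables were made separately. The AAV effect minus the ribose effect passed for 0 of 4 genes tested (limma adjusted p, background 0.00778%). Lyz2 had the largest value in size, -1.34 (SE 0.825, limma adjusted p = 0.816). Without the filter 0 of 9 passed (background 0.00765%) and 1 of 9 had an unadjusted p under 0.05, against 6.88% of all genes. That gene was Cd14, at -1.08 (SE 0.461, limma unadjusted p = 0.0378, adjusted p = 0.701). The AAV differences of the general myeloid genes are therefore not shown to differ from the ribose experiment.

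The genes most like these were sought among 12844 genes reaching a mean of 1 FPKM in both tables, by the smaller of the Pearson correlations in the 2 tables (log2(FPKM + 1), 6 libraries each). The mean profile of Lyz2, Fcer1g and Ptprc was most like Camp (0.94), S100a8 (0.93), Gltp (0.93), Lcn2 (0.92) and Ngp (0.92), of which 4 are on the neutrophil list. The mean profile of C1qa, C1qb, C1qc and Csf1r was most like Fgd4 (0.92), Ogn (0.91), Ext1 (0.88), Med21 (0.88) and Gm47933 (0.87), and 0 of these are on it. Camp encodes an antimicrobial peptide of neutrophil granules and Ogn a small proteoglycan of connective tissue. With 6 libraries a table, which share their group differences and their library differences, these values are a description only.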

How the data were processed

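Polyadenylated RNA was measured in 12 libraries, made with a directional kit per the labels' protocols. Per the submitters' processing notes, bcl2fastq 2.20, FastQC and Trim Galore were used and the build was GRCm38. Which aligner, counter and annotation made the tables, and whether strand was used, is not given in the sources used. The authors deposited FPKM values, 1 table per experiment, so levels were not compared across the tables and the depth is unknown. FPKM values fall for every other gene when abundant transcripts grow. The AAV table holds only genes that reach a mean of 1 FPKM. Symbols came from GENCODE M21.

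Groups were compared within each table with limma 3.58.1 in R 4.3.3 on log2(FPKM + 1), with a trend in the variance prior, over genes reaching a mean of 1 FPKM, with Benjamini-Hochberg adjustment over all of them and a threshold of 0.05. The difference of the effects was tested over the genes of both tables, with 1 spread per gene. The fit was tested on simulated data. Alternatives were a robust prior, library weights, a replicate block, quantile normalization, scaling to equal totals or by median ratios, pseudocounts of 0.1 and 0.5, a minimum mean of 5 FPKM or none, and the omission of each library.

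The genes described, the lists and the tests were chosen with earlier results of these data known. Named were the 10 genes, the 2 genes of each other list with the smallest p in each experiment, where described, and the 5 most like each class. Genes named outside this rule are marked as such or serve as direct background (Spi1, Lyz1, Tkt, Coro1a and Lcp1). With the group means removed, same-numbered replicates correlated at 0.03, 0.07 and -0.01 in the AAV table and 0.04, 0.36 and 0.16 in the ribose table. Differently numbered ones ran from -0.104 to 0.08 in the AAV table and from -0.26 to 0.145 in the ribose table. The values 0.36 and 0.16 thus lay above all differently numbered ones of the ribose table. The labels state no pairing, so the numbers were not taken as pairs. Whether ribose libraries of the same number share a source was not tested.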

Additional observations from a re-analysis of the deposited data

How the results depend on the processing

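Of 136 alternative values of the 9 genes tested in the AAV experiment, 128 had the same sign and the same side of the threshold, as did 57 of 61 in the ribose experiment and 77 of 85 for the difference of the effects. With AAV-TKT minus AAV-GFP, 2 genes passed over all genes, and 5 did with a pseudocount of 0.1, 4 with equal totals, 4 with a minimum mean of 5 FPKM, 23 with weights per library and 1 to 40 with a library left out, the 40 without AAV-GFP replicate 2. With the replicate number as a block, 0 passed in the AAV experiment, 1 in the ribose experiment and 1 for the difference. The block changed no call of the genes described, and the labels state no pairing by number. Of the genes described, 1, Lyz2, passed in the AAV experiment with equal totals, a pseudocount of 0.1, a minimum mean of 5 FPKM, a robust prior or weights per library, and 0 to 1 with a library left out. Their median log2 difference of -0.62 was -1.01 with a pseudocount of 0.1 and -1.54 with a mean of at least 5 FPKM, where Lyz2 alone is left and the classes cannot be compared. The resident minus the general median, 0.69, was 1.07 and 0.92 with pseudocounts of 0.1 and 0.5. It rests in part on Fcer1g, Ptprc and C1qc, which were listed only through AAV-GFP. C1qb, at -0.15, turned positive with weights per library (0.13) and ran from -0.32 to 0.10 with a library left out, positive without AAV-TKT replicate 1. Equal totals moved the median of all genes of the AAV table by under 0.1.

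With Ribose minus Vehicle, 1 gene passed over all genes, and 2 did with a pseudocount of 0.5 or equal totals and 1 to 4 with a library left out. The median over the 4 genes tested, -0.34, was -0.81 with a pseudocount of 0.1 and -0.70 to 0.28 with a library left out. The resident minus the general median, 0.23, was -0.23 with weights per library and -0.36 to 0.62 with a library left out. Lyz2 turned positive with weights per library (0.29) and ran from -0.74 to 0.53 with a library left out, positive without Vehicle replicate 2 (0.37) or Ribose replicate 2 (0.53). Ctss ran from -0.71 to 0.022, positive without Ribose replicate 2. For the difference of the effects, 1 gene passed, 2 did with a pseudocount of 0.1 and 1 to 3 with a library left out. Csf1r ran from -0.15 to 0.42, negative without Ribose replicate 2. Ctss turned positive with pseudocounts of 0.1 (0.60) and 0.5 (0.004), quantile normalization (0.047) and weights per library (0.046). With a library left out it ran from -0.64 to 0.091, positive without AAV-TKT replicate 1, Ribose replicate 1 or Ribose replicate 3. The causes were not tested. Most of the genes lie near 1 FPKM, where the unknown depth limits every value.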

Other observations

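Beside the genes described above, Laptm5 and Irf8 had separate Ribose and Vehicle groups without passing over all genes. Laptm5 was 1 of 8 tested pan-leukocyte genes separated on the lower side. Over all listed genes, which include those under a mean of 1 FPKM, the share was 5.43%. Among the untested genes of that list, Cd53 was also separated on the lower side and Fgr on the higher side, both named outside the naming rule. Irf8, of the Csf1r axis, was separated on the higher side. No share of all genes is given for that side, so no count is drawn from it. Such single genes are a description only. Laptm5, a lysosomal membrane protein of leukocytes, was at 0.268, 0.343 and 0.759 FPKM in Ribose, against 2.38, 2.55 and 1.67 FPKM in Vehicle (log2 difference -1.14, limma unadjusted p = 0.00497, adjusted p = 0.789). In the AAV table it was at 1.73, 2.32 and 1.06 FPKM in AAV-TKT, against 3.15, 3.91 and 4.26 FPKM in AAV-GFP. Irf8, a transcription factor of monocytes, macrophages and dendritic cells, lay the other way in the ribose experiment, at 2.08, 1.52 and 1.32 FPKM in Ribose, against 0.433, 0.717 and 0.788 FPKM in Vehicle (log2 difference 0.68, limma unadjusted p = 0.0439, adjusted p = 0.9998). Laptm5 and Irf8 thus lay on opposite sides.

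Lysosomal genes had 13 of 14 negative differences in the ribose experiment, with a median of -0.14 and 0 past the threshold. Over all listed genes, which include those under a mean of 1 FPKM, 50.9% were negative. All Ribose libraries lay below all Vehicle libraries for 3 of the 14 (5.43% of all listed genes). Ctsz, a carboxypeptidase, was at 25.6, 24.9 and 27.3 FPKM in Ribose, against 34.0, 27.5 and 33.8 FPKM in Vehicle. Lamp2, a membrane protein of lysosomes in most cells, was at 190.9, 186.1 and 177.8 FPKM in Ribose, against 199.3, 196.1 and 232.4 FPKM in Vehicle.

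Of the markers of dendritic cells, mast cells and lymphocytes, 2 of 6, 2 of 8 and 1 of 13 were analysed in the AAV table. Hdc, the histamine-forming enzyme of mast cells and other leukocytes, was at 0.373, 0.694 and 0.650 FPKM in AAV-TKT, against 1.52, 1.04 and 2.39 FPKM in AAV-GFP, and the groups were apart, with Hdc listed only through AAV-GFP. Kit, the stem cell factor receptor of mast cells that neurons also express, was at 20.7, 20.4 and 18.9 FPKM in AAV-TKT, against 16.4, 19.2 and 17.0 FPKM in AAV-GFP, and the groups overlapped.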
